A study of Mus musculus with 15 samples.

Results

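The collagens of mouse small intestinal organoids were taken as every gene whose symbol is Col, a number, a and a number (Col4a1, for example). There were 44 such genes among the 78298 of the count table, and all 44 had at least 1 read. Poly-A RNA had been sequenced from 5 conditions with 3 libraries each. All organoids came from small intestinal crypts of adult female C57BL/6J mice and carried a lentiviral transgene under the L30 promoter with puromycin resistance. The control line, Halo-NLS, expressed the V5-tagged HaloTag, a self-labelling protein tag, with a nuclear localization signal. The SOX9-Halo line expressed the transcription factor SOX9 fused to the HaloTag, and the SOX9-mEGFP line SOX9 fused to a green fluorescent protein. Both SOX9 lines were sampled while they still formed buds (SOX9-Halo_budding, SOX9-mEGFP_budding) and after long culture, when they had become round (SOX9-Halo_spheroid, SOX9-mEGFP_spheroid). The spheroids also carried a histone H2B reporter, H2B-mEGFP in SOX9-Halo_spheroid and H2B-mScarletI in SOX9-mEGFP_spheroid. The control and SOX9-mEGFP_budding had been cultured for equally many passages and SOX9-Halo_spheroid for the most, so morphology, the H2B reporter and time in culture cannot be told apart. Each construct was represented by 1 line, and the libraries of a condition were separate samples of that line, so p-values describe the spread among samples and not among animals.

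Collagens are triple-helical proteins of the extracellular matrix. Collagen IV chains assemble into the flat network of basement membranes, the sheet on which an epithelium rests, while fibrillar collagens such as I and III form the cables of connective tissue and are made mainly by fibroblasts. Collagens II, IX and XI build the fibrils of cartilage, where SOX9 is the master regulator of chondrocytes and binds collagen genes directly. In the gut, most collagen is made by mesenchymal cells, and cultured epithelial organoids are embedded in a basement-membrane extract that supplies matrix proteins from outside.

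Between 28062722 and 40559766 reads per library were counted on genes. Halo-NLS 3 stood apart with 40375 genes detected, against a median of 28352 over the 15 libraries. Sox9 had normalized counts of 515, 769 and 306 in Halo-NLS, 1336, 10540 and 6838 in SOX9-Halo_budding, 11370, 11090 and 6487 in SOX9-mEGFP_budding, 10520, 14830 and 14810 in SOX9-Halo_spheroid, and 8726, 16920 and 23650 in SOX9-mEGFP_spheroid. Every SOX9 library lay above every control library, and SOX9-Halo_budding 1 was the lowest of the SOX9 libraries. Sox9 rose against Halo-NLS by 3.56 ± 0.61 to 4.95 ± 0.65 (SE, log2 fold change) in the 4 SOX9 conditions (edgeR adjusted p at most 0.00256). The transgenes encode mouse SOX9, so their reads can align to Sox9, and the counts do not separate them from the gene of the organoids. The share of the transgene in the rise was not tested. The 6 epithelial markers (Epcam, Cdh1, Krt8, Krt18, Krt19, Vil1) summed to 171200 to 386800 normalized counts per library. Among them, Krt18 rose in both spheroid conditions against Halo-NLS, while in SOX9-Halo_spheroid Vil1 (villin) fell by 3.58 ± 0.28 and Epcam by 1.11 ± 0.16 on the log2 scale (edgeR adjusted p = 1.19e-07 and 3.55e-05). The 11 mesenchymal markers summed to 287 to 331 in Halo-NLS, 70.2 to 307 in the budding lines, 108 to 157 in SOX9-Halo_spheroid and 171 to 432 in SOX9-mEGFP_spheroid. Of these, the fibroblast markers Dcn, Lum, Thy1 and Twist1 had at most 6.29 in any library. Fn1 (fibronectin), which epithelia can also make, rose against Halo-NLS by 2.36 ± 0.68 in SOX9-Halo_spheroid and 4.25 ± 0.69 in SOX9-mEGFP_spheroid, Des rose in SOX9-Halo_spheroid, and Vim and Pdgfrb fell in both (edgeR adjusted p at most 0.00998). The 4 immune markers summed to 21.8 to 101 in Halo-NLS and to 103 to 274 in the spheroids. In the spheroids nearly all of the sum came from the lysosomal gene Cd68, with Ptprc at no more than 5.01 in any library. In Halo-NLS 3, the highest of its condition, Cd68 had 27.65, Cd3e 42.7 and Ptprc 21.4. The 4 endothelial markers summed to 27.54 to 45.25 in Halo-NLS and to no more than 6.01 in the spheroids. The 6 chondrocyte markers, of which Col2a1 is itself a collagen, summed to 20.9 to 66.6 in Halo-NLS. Comp, with 19.6, 32.1 and 42.7, made up most of that sum. The markers summed to 2.92 to 13.7 in SOX9-Halo_budding and 7.29 to 36.6 in SOX9-mEGFP_budding. In SOX9-Halo_spheroid they summed to 8.29 to 23.4 and in SOX9-mEGFP_spheroid to 4.76 to 16.0. Each spheroid condition thus overlapped its own budding line. The part of other cell types in the collagen values was not tested. Fewer cells of a type and less RNA per cell cannot be told apart in such bulk libraries.

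Collagen RNA was scarce in every budding condition and far more abundant in the spheroids. The 44 genes took 0.000656% to 0.00193% of the counts on genes in Halo-NLS, 0.00114% to 0.00446% in SOX9-Halo_budding and 0.00128% to 0.00231% in SOX9-mEGFP_budding. In SOX9-Halo_spheroid they took 0.0667% to 0.112%, and in SOX9-mEGFP_spheroid 0.0713% to 0.115%. Every spheroid library was above every other library. Col4a1, Col4a2 and Col18a1 made up 85.7% to 93.5% of the collagen counts in the spheroids, against 24.7% to 79.4% elsewhere. Per kilobase of exon, which allows levels of different genes to be compared, the order in SOX9-Halo_spheroid was Col4a2 with 47.8 ± 16.1 CPM (counts scaled to the library size) per kilobase (SD, n = 3), Col18a1 with 35.7 ± 1.19 and Col4a1 with 29.3 ± 10.5. The ranges of Col18a1 and of both collagen IV chains overlapped, but Col4a1 was below Col4a2 in each of the 3 libraries. Col4a5 came next at 4.85 ± 0.325, below the range of those genes. In SOX9-mEGFP_spheroid Col18a1 stood at 51.0 ± 13.2, Col4a2 at 29.5 ± 8.28, Col4a1 at 26.3 ± 5.73 and Col4a5 at 5.68 ± 0.704. Col4a1 was again below Col4a2 in each library, by a smaller margin. In Halo-NLS the highest member, Col18a1, reached only 0.252 ± 0.133 and did not differ from Col20a1 at 0.198 ± 0.101 beyond the spread.

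**Figure D1:**
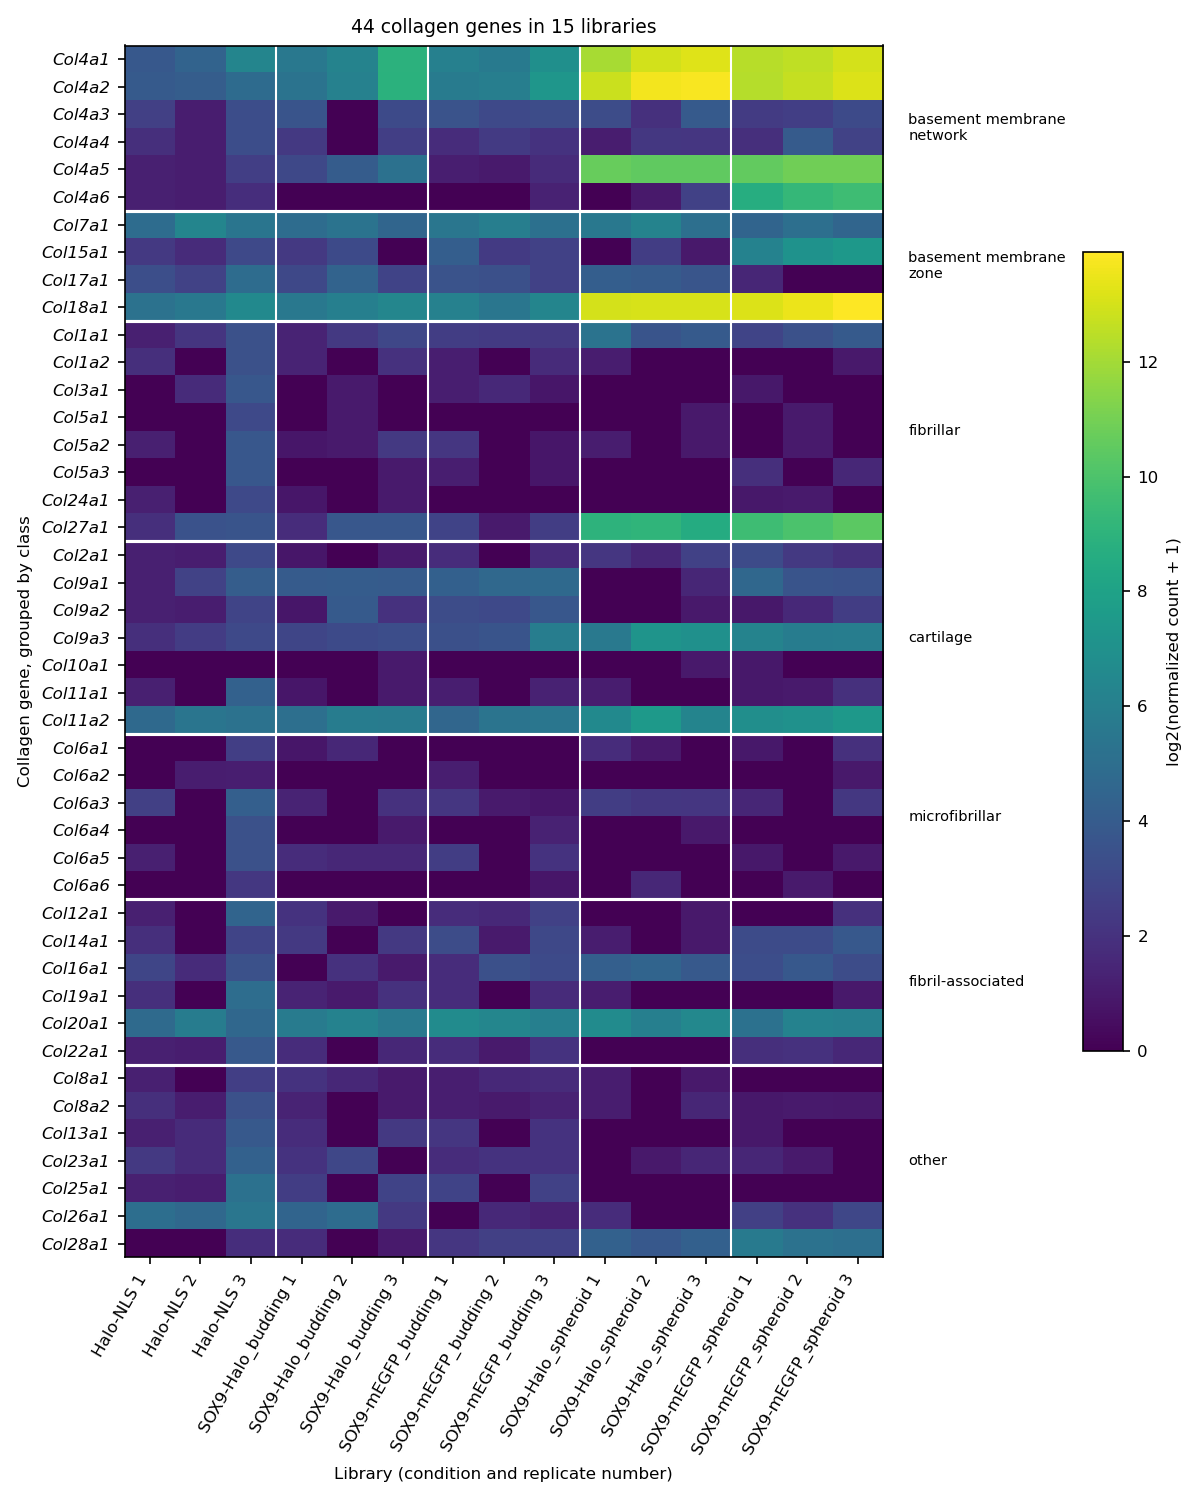
Level of each of the 44 collagen genes (rows, grouped by class) in each of the 15 libraries (columns), as log2(normalized count + 1). The bright rows in the spheroid columns are Col4a1, Col4a2, Col4a5, Col18a1 and Col27a1, with Col4a6 and Col15a1 bright only in SOX9-mEGFP_spheroid, and Halo-NLS 3 shows low counts of many members.

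Differential expression was tested for the 18 members that passed a filter on low counts, and the label of differentially expressed gene (DEG) required 3 things, namely an adjusted p no higher than 0.01, a change of 2-fold or more, and an average of 10 or more normalized counts. The adjusted p is that of edgeR's quasi-likelihood test after Benjamini-Hochberg over 17560 genes. Members that passed the filter only through the condition where they were high had to differ, so the counts describe the class and do not support a direction. Of the 18, Col1a1, Col4a3, Col16a1 and Col17a1 had a mean under 10 and could not be called, which left 14. Against Halo-NLS, 8 collagens were higher and 1 lower in SOX9-Halo_spheroid, where 13.6% of all genes tested were higher and 15.3% lower. In SOX9-mEGFP_spheroid 10 were higher and 1 lower, with 15.3% and 12.1% over all genes. Against its own budding line, SOX9-Halo_spheroid had 8 collagens higher and 2 lower (10.5% and 14.7% over all genes), and SOX9-mEGFP_spheroid had 9 higher and 0 lower (8.55% and 7.88%). Scaled by library sizes alone, 9 collagens were higher and 1 lower in SOX9-Halo_spheroid against Halo-NLS, while the genes higher and lower over the whole table numbered 3102 and 2229 in place of 2392 and 2682 (SOX9-mEGFP_spheroid, 3333 and 1500 in place of 2690 and 2133). For the count of 0 lower in SOX9-mEGFP_spheroid against its budding line, 1 member was lower at an unadjusted p under 0.05, and DESeq2 also called 0. The median log2 fold change of the 18 was 1.60, 2.81, 3.01 and 1.91 in these 4 comparisons, against -0.01, 0.03, -0.08 and -0.04 over all genes. The filter bears on these medians as on the counts, so they do not support a direction either. The comparisons share control libraries or spheroid libraries and are not independent of each other. Col4a1, Col4a2, Col4a5, Col11a2, Col18a1, Col27a1 and Col28a1 were higher in all 4.

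**Figure D2:**
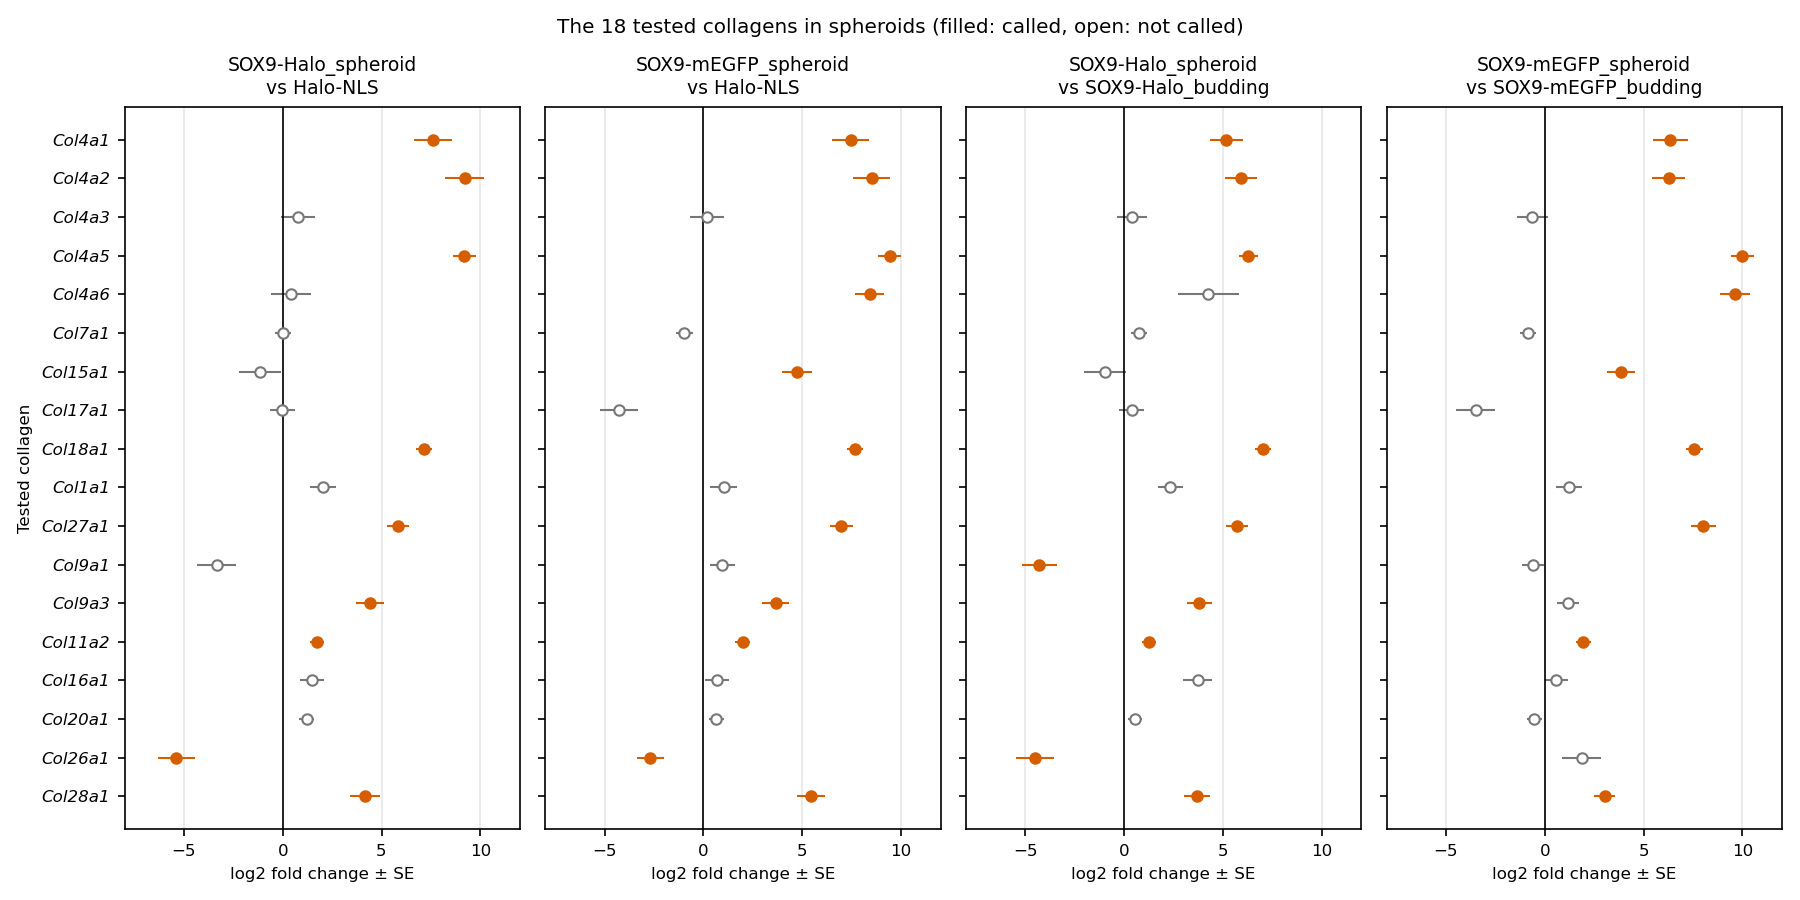
Log2 fold change with its SE (x axis) of the 18 tested collagens (y axis) in the 4 comparisons of a spheroid condition with Halo-NLS or with its own budding line. Filled points passed the thresholds for a DEG, and Col4a5 at 9.19 and 9.42 and Col4a2 at 9.21 and 8.51 lie farthest to the right against Halo-NLS.

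Against Halo-NLS, the largest rises were those of collagen IV chains. Col4a1 and Col4a2 encode the α1 and α2 chains, which form the common heterotrimer of basement membranes. They lie head to head on mouse chromosome 8 (GRCm39, Col4a1 at 11248423 to 11362826 on the minus strand and Col4a2 at 11362471 to 11499287 on the plus strand), and their annotated exons overlap in 311 bases, where reads were not counted for either gene. Col4a1 had normalized counts of 13.1, 20.7 and 79.2 in Halo-NLS, 46.9, 74.9 and 487 in SOX9-Halo_budding, 65.6, 50.9 and 123 in SOX9-mEGFP_budding, 4417, 8011 and 9565 in SOX9-Halo_spheroid, and 5423, 6148 and 8192 in SOX9-mEGFP_spheroid. The spheroid libraries were separated from all others, and in both budding lines replicate 3 was the highest. Against Halo-NLS the log2 fold change was 7.60 ± 0.95 (SE) in SOX9-Halo_spheroid and 7.45 ± 0.94 in SOX9-mEGFP_spheroid (edgeR adjusted p = 1.04e-05 and 1.85e-05), and without Halo-NLS 3 it was 8.74 and 8.59. Col4a2 had 14.4, 16.1 and 27.7 in Halo-NLS, 38.2, 68.1 and 471 in SOX9-Halo_budding, 54.7, 60.2 and 157 in SOX9-mEGFP_budding, 7058, 13210 and 14250 in SOX9-Halo_spheroid, and 5325, 6706 and 9257 in SOX9-mEGFP_spheroid. The groups fell in the same order as for Col4a1, with no overlap between spheroids and the rest. Its log2 fold change against Halo-NLS was 9.21 ± 0.98 and 8.51 ± 0.95 (edgeR adjusted p = 2.01e-06 and 5.85e-06). Against their own budding lines the differences were smaller, 5.18 ± 0.83 for Col4a1 and 5.91 ± 0.82 for Col4a2 in SOX9-Halo, and 6.35 ± 0.88 and 6.27 ± 0.84 in SOX9-mEGFP (edgeR adjusted p at most 0.000127). SOX9-Halo_budding 3 weighed on these values, since without it Col4a1 differed by 6.94 and Col4a2 by 7.79, and without SOX9-mEGFP_budding 3 the value of Col4a2 was 6.89. Per kilobase, Col4a1 stood at 0.58 to 0.65 times Col4a2 in the SOX9-Halo_spheroid libraries and at 0.85 to 0.98 times in those of SOX9-mEGFP_spheroid. The ranges did not overlap, and no test was run on this ratio.

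Of the other collagen IV chains, Col4a5 rose in both spheroid conditions and Col4a6 in SOX9-mEGFP_spheroid. Col4a5 and Col4a6 encode the α5 and α6 chains, which join into a trimer of smooth muscle and epithelial basement membranes. They diverge on chromosome X, with Col4a6 at 139948399 to 140257072 on the minus strand, Col4a5 at 140258354 to 140472231 on the plus strand and 1281 bases between their start sites. The 250 bases before each start site are shown because the neighbours behaved differently in the SOX9-Halo line. They were read from GRCm39 at the canonical transcript of GENCODE M39, contain no annotated exon, and are written 5′ to 3′ on the strand of each gene.
Col4a5, chrX:140258104-140258353, plus strand: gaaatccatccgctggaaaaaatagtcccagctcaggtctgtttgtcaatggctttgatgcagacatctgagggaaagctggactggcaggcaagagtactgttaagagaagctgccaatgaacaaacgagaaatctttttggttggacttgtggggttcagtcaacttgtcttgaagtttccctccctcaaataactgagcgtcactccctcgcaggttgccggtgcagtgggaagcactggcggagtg
Col4a6, chrX:140257073-140257322, minus strand: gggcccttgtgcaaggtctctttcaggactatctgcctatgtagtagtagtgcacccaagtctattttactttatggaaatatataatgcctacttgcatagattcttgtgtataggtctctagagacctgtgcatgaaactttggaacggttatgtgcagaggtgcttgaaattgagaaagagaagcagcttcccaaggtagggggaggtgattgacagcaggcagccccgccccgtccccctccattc
Neither window holds any of 3 core words of the SOX motif that were searched on both strands, AACAAT, then ACAAAG and then also ACAATG (the first and the last can overlap), which says only that these letters are not there. At least 1 of the 3 stood in 28.6% of the 250-base windows of 21757 protein-coding genes and in 10 of the 44 collagen windows (22.7%).

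Col4a5 had normalized counts of 1.31, 1.15 and 5.03 in Halo-NLS, 7.16, 15.6 and 36.1 in SOX9-Halo_budding, 1.22, 1.04 and 2.34 in SOX9-mEGFP_budding, 1636, 1484 and 1442 in SOX9-Halo_spheroid, and 1526, 1919 and 1896 in SOX9-mEGFP_spheroid. It was nearly silent in Halo-NLS and SOX9-mEGFP_budding, intermediate in SOX9-Halo_budding and at 1442 or more in all spheroids. The log2 fold change against Halo-NLS was 9.19 ± 0.58 and 9.42 ± 0.58 (edgeR adjusted p = 1.37e-08 and 3.25e-08), with 10.14 and 10.37 when Halo-NLS 3 was left out. The change from budding to spheroid was 6.29 ± 0.47 in SOX9-Halo (7.09 without SOX9-Halo_budding 3) and 10.00 ± 0.60 in SOX9-mEGFP (edgeR adjusted p = 7.27e-08 and 3.38e-08). Col4a6 had 1.31, 1.15 and 2.51 in Halo-NLS, 0 in all 3 SOX9-Halo_budding libraries, 0, 0 and 1.56 in SOX9-mEGFP_budding, 0, 0.946 and 5.40 in SOX9-Halo_spheroid, and 402, 623 and 773 in SOX9-mEGFP_spheroid. It was at or near 0 in 12 libraries and high in the 3 of SOX9-mEGFP_spheroid. There it rose by 8.40 ± 0.71 against Halo-NLS and was lower in SOX9-Halo_spheroid by a log2 fold change of -7.96 ± 0.67 (edgeR adjusted p = 1.25e-06 and 2.09e-06). Against SOX9-mEGFP_budding, which held 2 reads in all, the depth-scaled ratio was 912 with a 95% counting interval of 252 to 7539 (log2 fold change 9.61 ± 0.77, and 12.16 without SOX9-mEGFP_budding 3). Per kilobase, Col4a6 stood at 0.309 to 0.478 times Col4a5 in SOX9-mEGFP_spheroid and at no more than 0.004 times in SOX9-Halo_spheroid. Col4a3 and Col4a4, the α3 and α4 chains of kidney, lung and inner ear basement membranes, stayed at no more than 15.0 normalized counts in every library. Against Halo-NLS, 3 of 6 collagen IV genes were called higher in SOX9-Halo_spheroid and 4 of 6 in SOX9-mEGFP_spheroid, and 5 of 6 could be tested. Over all genes tested, 13.6% and 15.3% were higher in these comparisons. Col4a5 and Col4a6 passed the low-count filter through the conditions where they were high, so these counts do not support a direction.

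**Figure D3:**
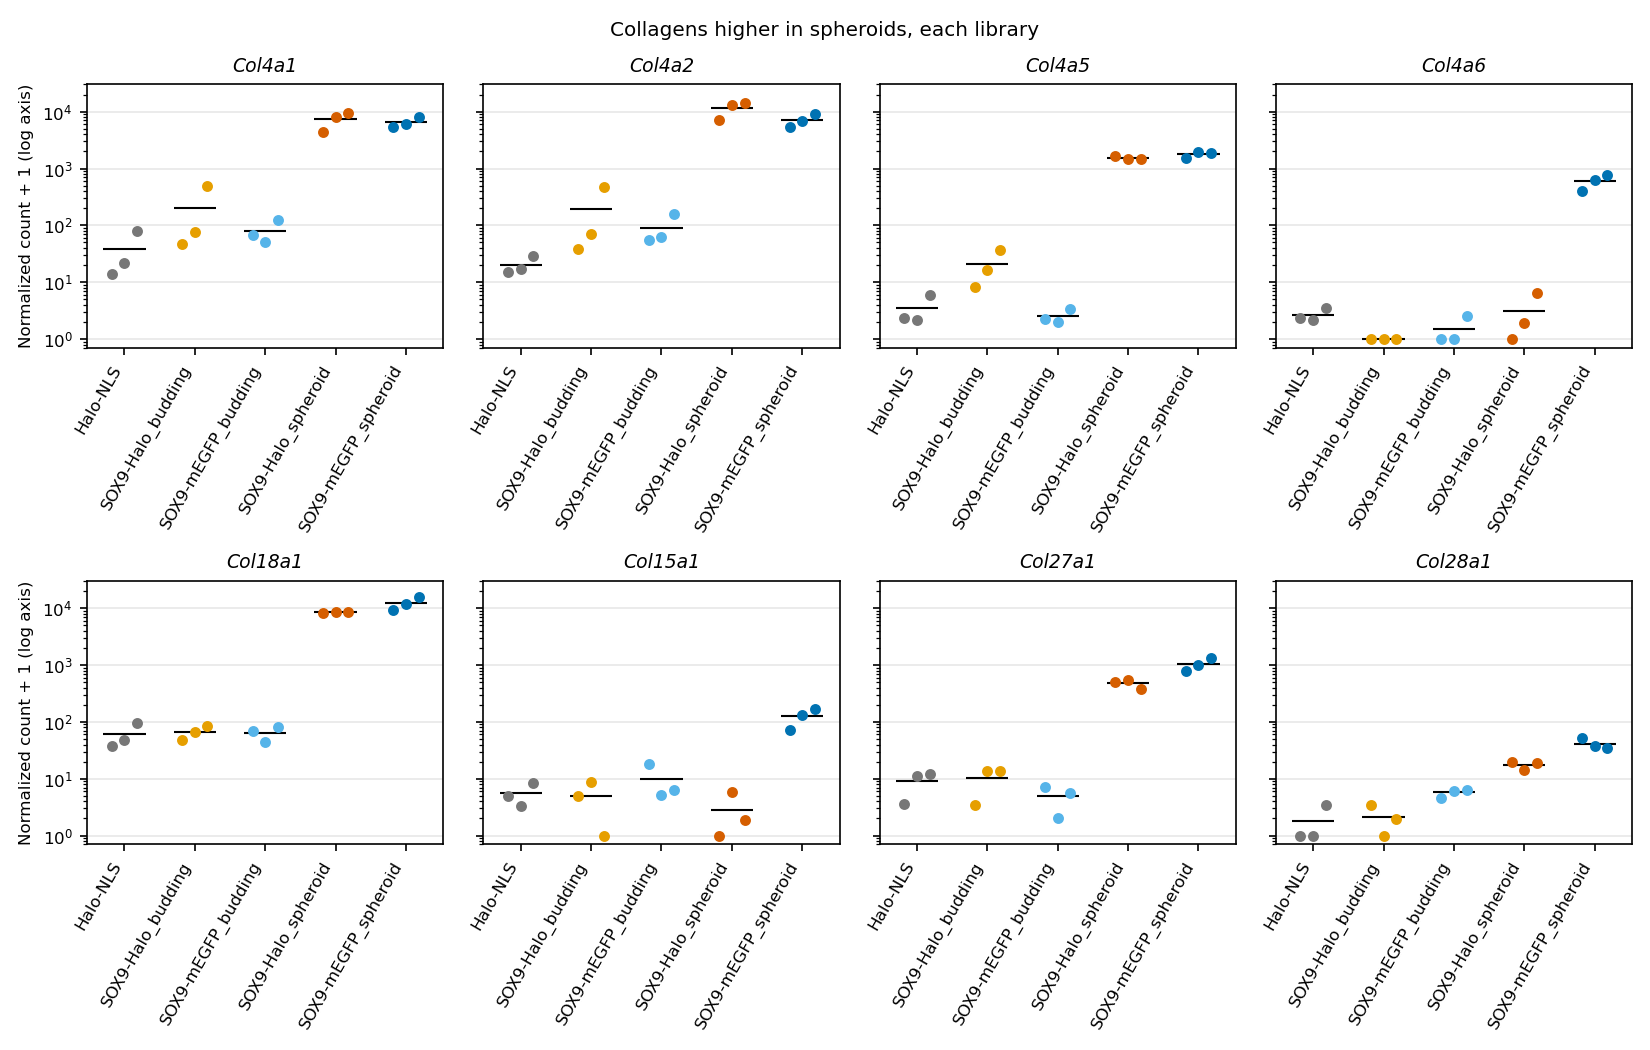
Normalized count + 1 on a log axis for 8 collagens in each library (points) with the condition mean (line), so that 0 counts sit at 1. Col4a1, Col4a2, Col4a5, Col18a1 and Col27a1 are high in both spheroid conditions, and Col4a6 and Col15a1 in SOX9-mEGFP_spheroid alone.

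The basement membrane zone holds collagens that anchor or border the collagen IV network. Col18a1 (chromosome 10, 76888012 to 77002390) encodes a heparan sulphate proteoglycan collagen of epithelial and vascular basement membranes, and its C-terminal fragment is endostatin. It had normalized counts of 36.6, 47.1 and 95.5 in Halo-NLS, 46.1, 64.2 and 82.0 in SOX9-Halo_budding, 68.0, 43.6 and 78.6 in SOX9-mEGFP_budding, 8142, 8687 and 8544 in SOX9-Halo_spheroid, and 9159, 11730 and 15380 in SOX9-mEGFP_spheroid. The 9 budding and control libraries overlapped one another, and all 6 spheroid libraries lay far above them. Col18a1 rose by 7.14 ± 0.41 in SOX9-Halo_spheroid and by 7.66 ± 0.42 in SOX9-mEGFP_spheroid against Halo-NLS (edgeR adjusted p = 6.69e-09 and 1.05e-08), and by 7.05 ± 0.40 and 7.57 ± 0.41 against the budding lines. Of its exon bases, 12.69% lie in exons of Slc19a1 on the opposite strand, where reads were not counted. In the budding lines it differed from Halo-NLS by 0.10 ± 0.34 and 0.09 ± 0.34, within the spread between libraries.

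Col15a1 (chromosome 4, 47207582 to 47313179) is the close relative of Col18a1 and bridges basement membranes to the fibrils beneath. It had 3.92, 2.30 and 7.54 normalized counts in Halo-NLS, 3.98, 7.78 and 0 in SOX9-Halo_budding, 17.0, 4.15 and 5.45 in SOX9-mEGFP_budding, 0, 4.73 and 0.900 in SOX9-Halo_spheroid, and 71.9, 133 and 170 in SOX9-mEGFP_spheroid. Only the 3 SOX9-mEGFP_spheroid libraries stood apart. There it rose by 4.74 ± 0.77 against Halo-NLS and by 3.86 ± 0.70 against SOX9-mEGFP_budding (edgeR adjusted p = 0.000171 and 0.000618), or by 4.65 without SOX9-mEGFP_budding 1. In SOX9-Halo_spheroid the difference from Halo-NLS was -1.15 ± 1.08 and was not called (edgeR adjusted p = 0.398). Its window before the start site, shown because Col15a1 and Col4a6 were the members called lower in SOX9-Halo_spheroid than in SOX9-mEGFP_spheroid with the largest difference, holds none of the 3 SOX words either.
Col15a1, chr4:47207332-47207581, plus strand: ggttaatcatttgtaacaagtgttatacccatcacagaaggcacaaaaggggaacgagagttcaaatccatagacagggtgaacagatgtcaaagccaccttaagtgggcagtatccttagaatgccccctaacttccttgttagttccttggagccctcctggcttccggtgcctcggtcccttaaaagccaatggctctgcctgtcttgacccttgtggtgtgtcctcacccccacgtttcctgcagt

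Col7a1, the collagen of anchoring fibrils, ranged from 21.3 to 78.0 normalized counts over the 15 libraries and was called in 0 of the 9 comparisons by edgeR and by DESeq2. It had an unadjusted p under 0.05 in 3 of them, including the interaction, where it was called with a replicate block in the fit to those 12 libraries alone. Its differences from Halo-NLS were 0.02 ± 0.40 in SOX9-Halo_spheroid and -0.96 ± 0.42 in SOX9-mEGFP_spheroid. Col17a1, the transmembrane collagen of hemidesmosomes, had 16.6, 15.1 and 11.7 normalized counts in SOX9-Halo_spheroid and 1.78, 0 and 0 in SOX9-mEGFP_spheroid. Halo-NLS held 9.15, 5.74 and 28.9, so that the SOX9-mEGFP_spheroid libraries were below all control libraries. The ratio of Halo-NLS to SOX9-mEGFP_spheroid was 22.9 with a 95% counting interval of 5.87 to 196, and with a mean of 9.88 over all libraries Col17a1 fell short of the minimum for a call (edgeR adjusted p = 0.00208).

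Among the 8 fibrillar collagens, Col27a1 was the exception to low counts. Col27a1 (chromosome 4, 63132241 to 63253228) encodes a fibrillar chain known from cartilage. Its normalized counts were 2.61, 10.3 and 11.3 in Halo-NLS, 2.39, 12.7 and 12.7 in SOX9-Halo_budding, 6.07, 1.04 and 4.67 in SOX9-mEGFP_budding, 512, 550 and 373 in SOX9-Halo_spheroid, and 783, 1015 and 1342 in SOX9-mEGFP_spheroid. All spheroid libraries exceeded all others, and the SOX9-mEGFP_spheroid libraries exceeded those of SOX9-Halo_spheroid. Col27a1 rose by 5.85 ± 0.56 and 6.98 ± 0.58 against Halo-NLS (edgeR adjusted p = 7.31e-07 and 3.93e-07) and by 5.71 ± 0.54 and 8.02 ± 0.62 against the budding lines. The difference between the spheroid conditions, -1.13 ± 0.42, was not called (edgeR adjusted p = 0.066), but passed when the fit held only those 6 libraries. The chains of collagens I, III and V, which dominate connective tissue, were barely present. Col1a1 ranged from 1.31 to 10.1 normalized counts in Halo-NLS, stood at 37.9, 11.4 and 14.4 in SOX9-Halo_spheroid, and with a mean of 8.95 could not be called. Its partner chain Col1a2 had at most 10.1, in Halo-NLS 3, and no more than 1.18 in any spheroid library.

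The cartilage collagens, the class in which SOX9 is known to bind enhancers, did not move together. Of 7 genes, 3 could be tested, and Col27a1 was not among the 7 because it was placed with the fibrillar collagens. Col2a1 (chromosome 15, 97873483 to 97902689), the main collagen of cartilage, had 1.31, 1.15 and 7.54 normalized counts in Halo-NLS, 0.796, 0 and 0.976 in SOX9-Halo_budding, 2.43, 0 and 2.34 in SOX9-mEGFP_budding, 3.55, 1.89 and 5.40 in SOX9-Halo_spheroid, and 7.99, 4.01 and 2.86 in SOX9-mEGFP_spheroid. It had at most 9 reads in any library, where a count of 0 allows up to 3 reads (2.34 to 3.92 normalized counts, depending on the library), and did not pass the filter for a test. SOX9-Halo_spheroid, with 3, 2 and 6 reads, lay above its own budding line, with 1, 0 and 1. SOX9-mEGFP_spheroid, with 9, 4 and 3 reads, and its budding line, with 2, 0 and 3, met at 3 reads and were apart only after scaling. Both spheroid conditions overlapped Halo-NLS. Col11a2 (chromosome 17, 34258108 to 34285664), the α2 chain of collagen XI, had 26.1, 41.3 and 36.5 in Halo-NLS, 33.4, 55.5 and 54.6 in SOX9-Halo_budding, 23.1, 39.5 and 42.8 in SOX9-mEGFP_budding, 94.8, 174 and 75.6 in SOX9-Halo_spheroid, and 117, 128 and 167 in SOX9-mEGFP_spheroid. The spheroids lay above the rest by a much smaller margin than for collagen IV. Col11a2 rose by 1.72 ± 0.37 and 1.98 ± 0.37 against Halo-NLS (edgeR adjusted p = 0.00127 and 0.000523) and by 1.95 ± 0.36 against SOX9-mEGFP_budding. Its rise of 1.27 ± 0.35 against SOX9-Halo_budding (edgeR adjusted p = 0.00951) was not called without SOX9-Halo_budding 1, 2 or 3 or SOX9-Halo_spheroid 1 or 2, with values of 0.78 to 1.39. Without SOX9-Halo_spheroid 2 the rise against Halo-NLS was 1.28 and was not called either (edgeR adjusted p = 0.0103).

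Col9a3 and Col9a1 encode chains of collagen IX, which decorates the surface of collagen II fibrils. They went in different directions from SOX9-Halo_budding to SOX9-Halo_spheroid. Col9a3 (chromosome 2, 180239583 to 180264063) had normalized counts of 2.61, 4.59 and 7.54 in Halo-NLS, 6.37, 7.78 and 8.78 in SOX9-Halo_budding, 9.72, 11.4 and 59.2 in SOX9-mEGFP_budding, 47.4, 148 and 127 in SOX9-Halo_spheroid, and 74.6, 57.1 and 58.1 in SOX9-mEGFP_spheroid. SOX9-mEGFP_budding 3 reached the range of the spheroids. Col9a3 rose by 4.41 ± 0.70 and 3.65 ± 0.70 against Halo-NLS and by 3.80 ± 0.64 against SOX9-Halo_budding (edgeR adjusted p = 0.000108, 0.0007 and 0.000202). Against SOX9-mEGFP_budding the difference of 1.19 ± 0.56 was not called (edgeR adjusted p = 0.14), but it was without SOX9-mEGFP_budding 3. Exons of Tcfl5 on the opposite strand cover 11.82% of its exon bases. Col9a1 (chromosome 1, 24216691 to 24291765) had 1.31, 5.74 and 16.3 in Halo-NLS, 15.1, 15.6 and 14.6 in SOX9-Halo_budding, 18.2, 24.9 and 26.5 in SOX9-mEGFP_budding, 0, 0 and 1.80 in SOX9-Halo_spheroid, and 24.0, 11.0 and 10.5 in SOX9-mEGFP_spheroid. The SOX9-Halo_spheroid libraries held 2 reads in all and lay below every library of either budding line and of SOX9-mEGFP_spheroid. Halo-NLS 1 lay within their range, and against Halo-NLS Col9a1 was not called, though it was at an adjusted p of 0.05. In SOX9-Halo_spheroid Col9a1 was 22.8-fold lower than in SOX9-Halo_budding, with a 95% counting interval of 5.98 to 193, and 23.2-fold lower than in SOX9-mEGFP_spheroid, with an interval of 6.10 to 197 (edgeR adjusted p = 0.00114 and 0.00217). The second of these calls was lost without SOX9-Halo_spheroid 1 or 2 or SOX9-mEGFP_spheroid 1, with log2 fold changes of -3.76 to -3.88, and in the fit to those 6 libraries alone. Without SOX9-Halo_spheroid 3 the log2 fold changes were -6.95 and -6.91. Col9a2, the third chain, had at most 14.6 normalized counts, and Col10a1, the collagen of hypertrophic cartilage, at most 0.976. The summed normalized count of the 7 cartilage collagens was 34.0 to 93.0 in Halo-NLS, 57.3 to 93.4 in SOX9-Halo_budding, 63.2 to 145 in SOX9-mEGFP_budding, 147 to 324 in SOX9-Halo_spheroid and 203 to 246 in SOX9-mEGFP_spheroid.

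**Figure D4:**
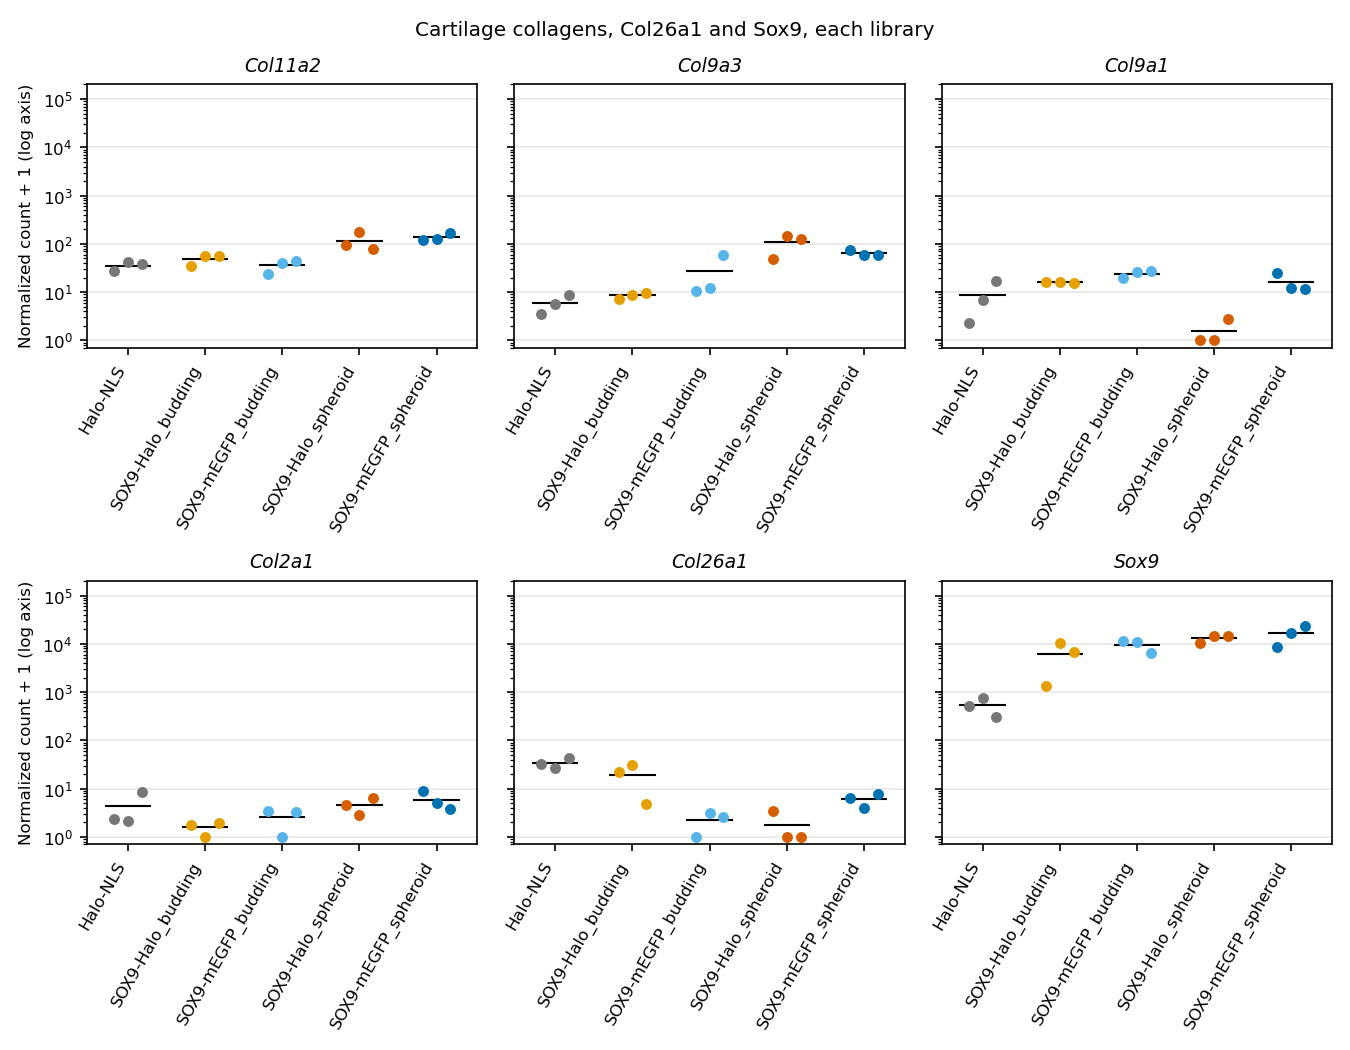
Normalized count + 1 on a log axis for 4 cartilage collagens, Col26a1 and Sox9 in each library (points) with the condition mean (line). Col11a2 and Col9a3 are higher in the spheroids, Col9a1 is lowest in SOX9-Halo_spheroid, Col2a1 is near 0 throughout, and Sox9 is higher in every SOX9 library than in Halo-NLS.

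The remaining classes held few detected members. Col28a1 (chromosome 6, 7997102 to 8192617), a beaded-filament collagen with von Willebrand factor A domains, had 0, 0 and 2.51 normalized counts in Halo-NLS, 2.39, 0 and 0.976 in SOX9-Halo_budding, 3.64, 5.19 and 5.45 in SOX9-mEGFP_budding, 19.0, 13.2 and 18.01 in SOX9-Halo_spheroid, and 51.5, 37.1 and 33.3 in SOX9-mEGFP_spheroid. The spheroid libraries lay above all others, at low counts. The 2 reads of Halo-NLS set wide limits, with a ratio of 20.2 (95% counting interval 5.30 to 171) for SOX9-Halo_spheroid and 49.8 (13.5 to 415) for SOX9-mEGFP_spheroid (edgeR adjusted p = 0.000381 and 2.6e-05, log2 fold change 4.15 ± 0.76 and 5.43 ± 0.71). Without Halo-NLS 3, which held these reads, the log2 fold changes were 7.09 and 8.37. Against the budding lines it rose by 3.67 ± 0.67 and 3.04 ± 0.53 (edgeR adjusted p = 0.000374 and 0.000447), with 4.77 for SOX9-Halo when SOX9-Halo_budding 1 was left out. In the fit to SOX9-Halo_spheroid and its comparison condition alone, the calls against Halo-NLS and SOX9-Halo_budding were lost. Without SOX9-mEGFP_spheroid 1 its mean count no longer reached 10, and both calls of that line were lost at log2 fold changes of 5.21 and 2.81. Of the members called higher in all 4 comparisons, Col4a5 and Col28a1 had windows free of annotated exons, and that of Col28a1 is shown because it held SOX words, set in capitals. The word ACAAAG stood in 15.9% of all windows on either strand, and the word ACAATG in 9.41%. The window of Col4a2, not shown because it reaches into an exon, held ACAAAG at -201 and at -64 from the start site.
Col28a1, chr6:8192618-8192867, minus strand: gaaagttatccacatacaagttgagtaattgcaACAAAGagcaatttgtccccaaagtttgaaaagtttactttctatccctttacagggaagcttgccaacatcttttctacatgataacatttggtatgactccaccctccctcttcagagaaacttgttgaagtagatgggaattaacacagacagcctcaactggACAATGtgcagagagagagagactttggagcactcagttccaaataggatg

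Col26a1 (chromosome 5, 136770613 to 136912063), a short collagen first described in testis and ovary, went the other way. It had 31.4, 25.3 and 42.7 normalized counts in Halo-NLS, 21.5, 29.2 and 3.90 in SOX9-Halo_budding, 0, 2.08 and 1.56 in SOX9-mEGFP_budding, 2.37, 0 and 0 in SOX9-Halo_spheroid, and 5.33, 3.00 and 6.67 in SOX9-mEGFP_spheroid. It was highest in Halo-NLS, and SOX9-Halo_budding 3 lay far below the other libraries of its group. With 2 reads left in SOX9-Halo_spheroid it was 49.5-fold lower than in Halo-NLS (95% counting interval 13.3 to 416) and 27.8-fold lower than in SOX9-Halo_budding (7.36 to 234; edgeR adjusted p = 0.000219 and 0.0013). It was lower than in Halo-NLS by -2.69 ± 0.69 in SOX9-mEGFP_spheroid and by -4.55 ± 0.84 in SOX9-mEGFP_budding (edgeR adjusted p = 0.00498 and 0.00421). Both of these calls were lost without Halo-NLS 3 and without any library of the SOX9-mEGFP condition compared, and the second also without Halo-NLS 2, with log2 fold changes of -2.45 to -2.95 and -4.11 to -4.97. Without Halo-NLS 3 the mean fell under 10, which also ended the call in SOX9-Halo_spheroid (-5.15), and without SOX9-Halo_spheroid 1 the log2 fold changes of that condition were -8.06 against Halo-NLS and -7.22 against SOX9-Halo_budding. Col20a1 (chromosome 2, 180628316 to 180660156), a fibril-associated collagen, was detected in all libraries at 23.9 to 102 normalized counts and was called in 0 of 9 comparisons by edgeR and by DESeq2. It had an unadjusted p under 0.05 in 2 of them, and its largest difference was 1.21 ± 0.38 in SOX9-Halo_spheroid against Halo-NLS (edgeR adjusted p = 0.0155), which was called higher when libraries were scaled by their sizes alone.

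Col16a1, a fibril-associated collagen, differed from SOX9-Halo_budding by 3.72 ± 0.73 in SOX9-Halo_spheroid (edgeR adjusted p = 0.000713) but could not be called. It, Col1a1 and Col17a1 are given by value because their low mean alone kept them from a call, a choice made after the values were seen.

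The other 26 members did not pass the filter. None had more than 28 reads in any library, and outside Halo-NLS 3 none had more than 16. Halo-NLS 3 held 244 reads on 25 of them, while the other 14 libraries held 13 to 82 reads on 6 to 21 of them. The 6 microfibrillar collagens VI were all in this group, with at most 14 reads. The low counts of Halo-NLS 3 were spread over fibrillar, microfibrillar, fibril-associated and other classes, and this library was also the one with the most genes detected. Its part in those counts was not tested.

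Between the budding conditions and the control, few collagens differed. In SOX9-Halo_budding 1 collagen was higher than in Halo-NLS and 0 lower (2.49% and 1.26% of all genes). It was Col4a5, with a log2 fold change of 2.90 ± 0.62 (edgeR adjusted p = 0.00884), and the call was lost without any library of Halo-NLS (2.63, 2.56 and 3.85) and without SOX9-Halo_budding 3 (2.14), and in the fit to those 6 libraries alone, where Col4a5 did not pass the filter. For the 0 lower, 2 had an unadjusted p under 0.05 and DESeq2 called 0. Col4a2 at 3.30 ± 0.81 and Col4a1 at 2.42 ± 0.79 did not reach the threshold (edgeR adjusted p = 0.0162 and 0.0464). In SOX9-mEGFP_budding 0 collagens were higher and 1, Col26a1, was lower (1.99% and 0.763% of all genes), and for the 0 higher, 5 had an unadjusted p under 0.05 and DESeq2 called 1, Col9a3. SOX9-Halo_budding and SOX9-mEGFP_budding differed in 0 collagens in either direction (0.29% higher and 0.165% lower over all genes), with 2 higher and 3 lower at an unadjusted p under 0.05 and 1, Col4a5, called higher by DESeq2. Col4a5 differed there by 3.48 ± 0.63 (edgeR adjusted p = 0.0123).

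Between the spheroid conditions, 0 collagens were higher in SOX9-Halo_spheroid and 3 lower, namely Col4a6, Col15a1 and Col9a1 (3.59% and 9.58% of all genes). For the 0 higher, 2 had an unadjusted p under 0.05 and DESeq2 called 0. The log2 fold change of Col15a1 was -5.90 ± 0.83 (edgeR adjusted p = 9.14e-05), and -7.62 without SOX9-Halo_spheroid 2, and that of Col4a6 was -9.86 without SOX9-Halo_spheroid 3. The most abundant members were not called, with 0.15 ± 0.69 for Col4a1, 0.70 ± 0.66 for Col4a2, -0.23 ± 0.36 for Col4a5 and -0.52 ± 0.31 for Col18a1. The libraries of Col18a1 still did not overlap, with 8142 to 8687 normalized counts in SOX9-Halo_spheroid and 9159 to 15380 in SOX9-mEGFP_spheroid. An interaction term compared the step from budding to spheroid between the lines, and in it 0 collagens were higher and 2 lower (1.81% and 5.58% of all genes), and for the 0 higher 4 had an unadjusted p under 0.05 and DESeq2 called 0. Col4a5 changed by 3.71 ± 0.74 less on the log2 scale in SOX9-Halo (a difference of -3.71, edgeR adjusted p = 0.00308), with -2.92 without SOX9-Halo_budding 3, and was not called without SOX9-mEGFP_budding 1 (-3.59) or 2 (-3.54). Col26a1 differed by -6.38 ± 1.39 (edgeR adjusted p = 0.00577), with -9.08 without SOX9-Halo_spheroid 1, and the call was lost in 12 of 20 alternatives, 9 of which left out 1 library (adjusted p up to 0.018 where it was tested). For Col4a6 the edgeR fit gave no usable error, since SOX9-Halo_budding was at 0 in all libraries, while DESeq2 called Col4a6 and Col15a1 lower as well.

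Same-numbered libraries of SOX9-Halo_budding and SOX9-Halo_spheroid deviated together from their condition means. A replicate block in the fit to all 15 libraries changed no collagen call between them. In the fit to those 6 libraries alone, with or without the block, 6 of the 10 calls remained, and Col11a2, Col28a1, Col9a1 and Col26a1 were lost, Col28a1 and Col9a1 because their mean over the 6 libraries was under 10 and Col26a1 because it did not pass the filter there.

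Making collagen takes enzymes that hydroxylate proline and lysine, chaperones and export factors in the endoplasmic reticulum, proteases that cut the propeptides, and oxidases that cross-link the fibrils. Of 34 such genes, 19 were tested against Halo-NLS. In SOX9-Halo_spheroid 4 were higher and 1 lower (13.6% and 15.3% over all genes), and in SOX9-mEGFP_spheroid 7 were higher and 3 lower (15.3% and 12.1%). The highest counts, not scaled by length, were those of P4hb, the shared subunit of prolyl 4-hydroxylase and a general disulphide isomerase, with 55740 to 186700 normalized counts over the libraries, and Mia2, an export factor of the endoplasmic reticulum, with 1576 to 6791. Neither was called in the spheroids, P4hb at -0.94 ± 0.32 and -0.56 ± 0.31 and Mia2 at 0.48 ± 0.33 and 0.94 ± 0.34. The largest rise was that of the cross-linking oxidase Loxl4, which had 1.15 to 8.80 normalized counts in Halo-NLS, 2191, 1777 and 1874 in SOX9-Halo_spheroid and 264, 317 and 366 in SOX9-mEGFP_spheroid. It rose by 8.70 ± 0.71 and 6.08 ± 0.67 and was higher in SOX9-Halo_spheroid than in SOX9-mEGFP_spheroid by 2.63 ± 0.50 (edgeR adjusted p = 1.52e-07, 5.08e-06 and 0.00107). The largest fall was that of P3h4, which acts with lysyl hydroxylase and prolyl 3-hydroxylase, from 247, 322 and 385 normalized counts in Halo-NLS to 39.1, 20.8 and 7.20 in SOX9-Halo_spheroid (-3.85 ± 0.43) and 89.6, 65.1 and 81.9 in SOX9-mEGFP_spheroid (-2.01 ± 0.39; edgeR adjusted p = 3.71e-06 and 0.000744). P3h4 was already low in the budding lines, with 47.73, 57.41 and 41.95 in SOX9-Halo_budding and 87.46, 71.65 and 85.65 in SOX9-mEGFP_budding. The range of SOX9-mEGFP_spheroid overlapped that of its budding line.

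Some further genes of this list were chosen after their values were seen. Plod2, the lysyl hydroxylase of collagen telopeptides, had 86.3, 32.1 and 36.5 normalized counts in Halo-NLS, 213, 138 and 163 in SOX9-Halo_budding, 877, 609 and 1036 in SOX9-mEGFP_budding, 3051, 2403 and 2178 in SOX9-Halo_spheroid and 2501, 1887 and 2200 in SOX9-mEGFP_spheroid. The 5 conditions did not overlap except for the spheroids with each other, and Plod2 was higher than in Halo-NLS in all 4 SOX9 conditions (log2 fold change 1.74 ± 0.34 to 5.63 ± 0.39, edgeR adjusted p at most 0.00605). Pcolce, the enhancer of procollagen C-proteinase, rose from 38.97 to 62.0 in Halo-NLS to 2048 to 2448 in SOX9-Halo_spheroid and 440 to 480 in SOX9-mEGFP_spheroid, and the protease itself, Bmp1, fell in SOX9-mEGFP_spheroid (49.1 to 97.2, against 451 to 822 in Halo-NLS, a log2 fold change of -3.12 ± 0.39). The difference of the spheroid conditions was called for both (2.28 ± 0.29 and 2.72 ± 0.39, edgeR adjusted p = 3.75e-05 and 9.31e-05). Pxdn, peroxidasin, which forms the sulphilimine cross-links of collagen IV, had at most 1.26 normalized counts outside SOX9-mEGFP_spheroid and 32.0, 41.1 and 93.3 there (log2 fold change 6.69 ± 0.88 against Halo-NLS, edgeR adjusted p = 5.43e-05). Serpinh1, the collagen chaperone HSP47, had at most 5.03 normalized counts in any library, and the secreted collagen-binding protein Sparc at most 8.504.

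Of 10 collagen receptors, 6 were tested. In SOX9-Halo_spheroid 1 was higher and 2 lower than in Halo-NLS (13.6% and 15.3% over all genes), and in SOX9-mEGFP_spheroid 3 were higher and 0 lower (15.3% and 12.1%). Itgb1, the β1 integrin subunit, had the highest counts, with 7276, 2242 and 2251 normalized counts in Halo-NLS, 18940, 14190 and 14430 in SOX9-Halo_spheroid and 13750, 16080 and 12610 in SOX9-mEGFP_spheroid. It rose by 2.01 ± 0.37 and 1.85 ± 0.37 (edgeR adjusted p = 0.000365 and 0.000849). Itgb1 had 8365, 6324 and 6973 in SOX9-Halo_budding and 8268, 7702 and 6559 in SOX9-mEGFP_budding, nearer to Halo-NLS 1 than to the other control libraries. All spheroid libraries lay above these, by a smaller margin than above Halo-NLS 2 and 3. Ddr1, a receptor tyrosine kinase for collagen, had 3039 to 11150 normalized counts over the libraries and differed by 0.37 ± 0.27 and 0.64 ± 0.28, neither of which was called. Of the 4 α subunits that pair with β1 to bind collagen, Itga2 and Itga1 separated the spheroid conditions. Itga10 did not (24.9, 49.2 and 44.1 normalized counts in SOX9-Halo_spheroid and 45.3, 44.1 and 57.1 in SOX9-mEGFP_spheroid, a log2 difference of -0.30 ± 0.28), and Itga11 had at most 2.84 in the spheroids. Itga2 had 548, 166 and 153 normalized counts in Halo-NLS, 8.29, 0.946 and 4.501 in SOX9-Halo_spheroid and 1240, 1144 and 1184 in SOX9-mEGFP_spheroid. Itga1, chosen after its values were seen, had 163, 50.5 and 113, then 4.74, 0.946 and 1.80, and then 256, 301 and 269. Both nearly vanished in SOX9-Halo_spheroid, while in SOX9-mEGFP_spheroid Itga2 rose by 2.04 ± 0.49 and Itga1 differed by 1.34 ± 0.40, which was not called (edgeR adjusted p = 0.00331 and 0.0132). The difference between the spheroid conditions was -8.04 ± 0.70 for Itga2 and -6.79 ± 0.58 for Itga1 (edgeR adjusted p = 8.49e-07 and 7.60e-07).

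**Figure D5:**
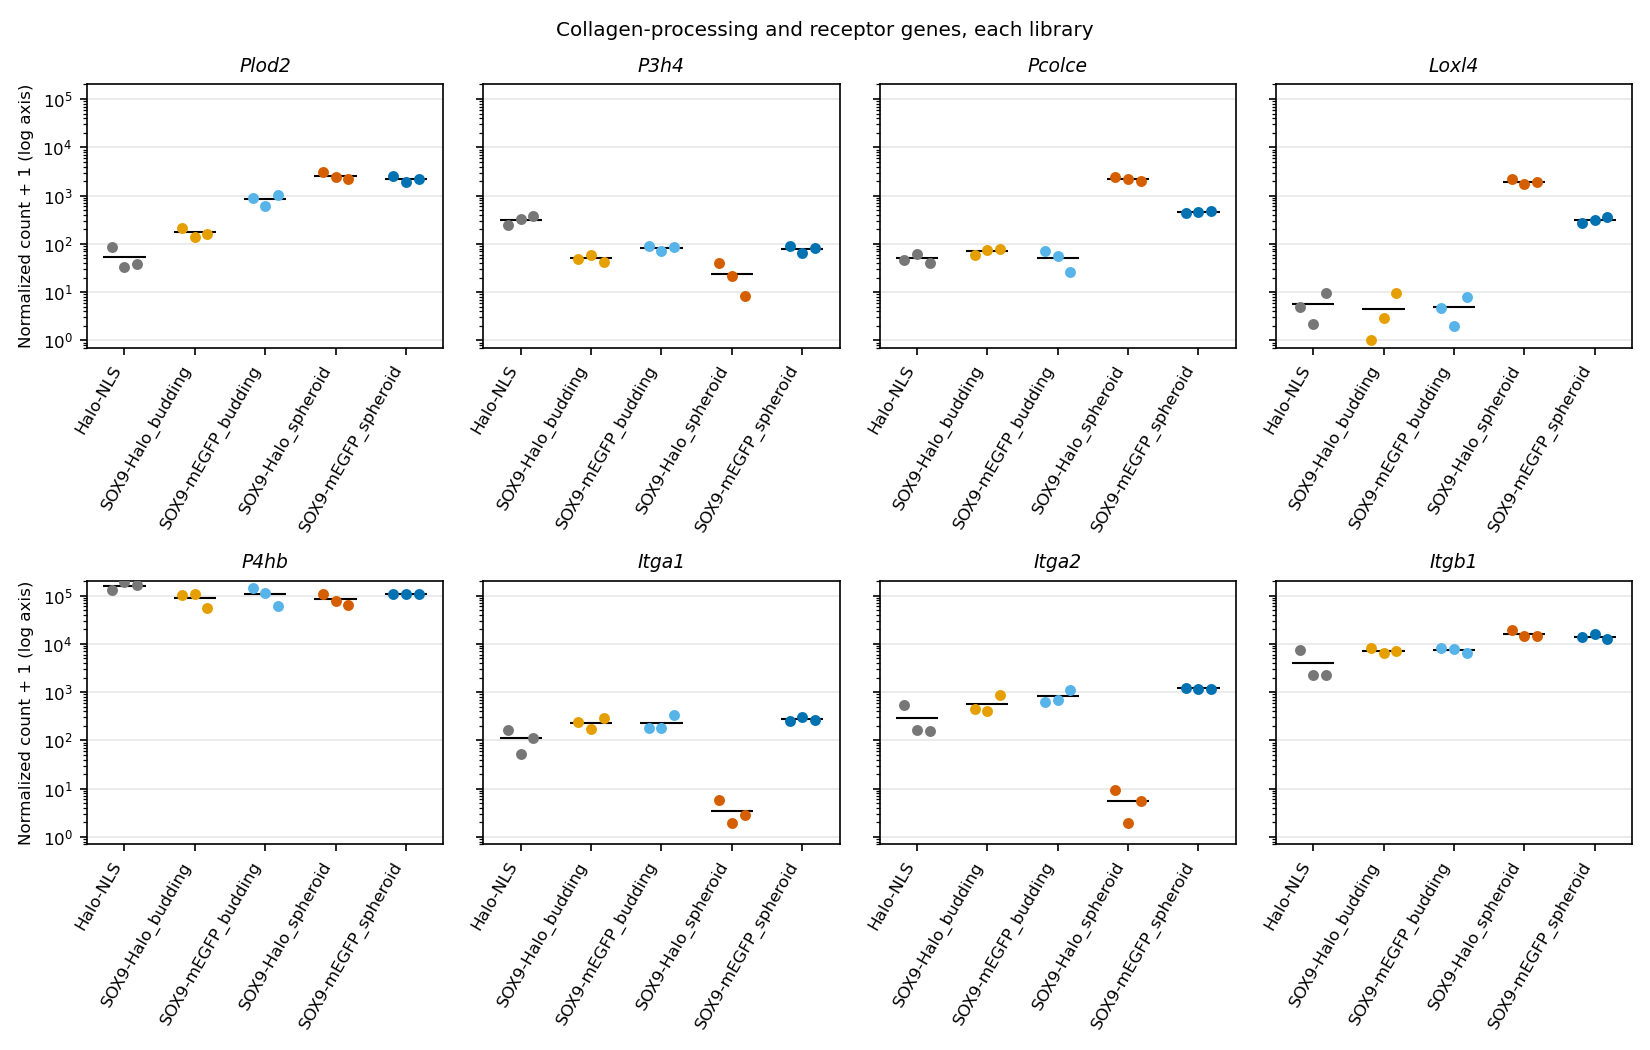
Normalized count + 1 on a log axis for 5 collagen-processing genes (Plod2, P3h4, Pcolce, Loxl4, P4hb) and 3 integrin subunits in each library (points) with the condition mean (line). Loxl4 and Pcolce are highest in SOX9-Halo_spheroid, where Itga1 and Itga2 are near 0.

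Other genes of cartilage did not form a common pattern with the collagens. Of 10 such genes 5 were tested against Halo-NLS. In SOX9-Halo_spheroid 1 was higher and 1 lower (13.6% and 15.3% over all genes), and in SOX9-mEGFP_spheroid 1 was higher and 2 lower (15.3% and 12.1%), shares that rest on few genes. Ihh, a hedgehog ligand of both hypertrophic cartilage and gut epithelium, had 7141, 9072 and 4782 normalized counts in Halo-NLS, 689, 649 and 661 in SOX9-Halo_spheroid and 1307, 1287 and 976 in SOX9-mEGFP_spheroid. It fell by 3.39 ± 0.49 and 2.56 ± 0.47 on the log2 scale (edgeR adjusted p = 4.24e-05 and 0.000491). Runx2, a transcription factor of bone and hypertrophic cartilage, had 10.5, 1.15 and 25.1 in Halo-NLS and 207, 111 and 143 in SOX9-Halo_spheroid, a rise of 3.65 ± 0.74, and 33.7, 81.1 and 97.2 in SOX9-mEGFP_spheroid, where the difference of 2.53 ± 0.73 was not called (edgeR adjusted p = 0.000853 and 0.0103). Sox6, a partner of SOX9 in cartilage, differed from Halo-NLS by 1.12 ± 0.32 in SOX9-Halo_spheroid, which was not called, and by 2.43 ± 0.34 in SOX9-mEGFP_spheroid, which was (edgeR adjusted p = 0.0104 and 4.22e-05). It had 257.5, 141 and 91.8 normalized counts in Halo-NLS, 619, 529 and 991 in SOX9-Halo_budding and 334, 326 and 404 in SOX9-Halo_spheroid. In SOX9-mEGFP_budding it had 515, 479 and 551, and in SOX9-mEGFP_spheroid 760.5, 971 and 902. The SOX9-Halo_spheroid libraries thus lay below those of their budding line, and the SOX9-mEGFP_spheroid libraries above those of theirs. The chondrocyte markers Acan, Matn1 and Hapln1 had at most 11.3 normalized counts in any library and at most 2.00 in any spheroid library. Cnmd had at most 6.23 in any library and at most 1.89 in the spheroids. Comp had 19.6, 32.1 and 42.7 in Halo-NLS, 3.55, 8.51 and 15.3 in SOX9-Halo_spheroid, and 5.33, 1.00 and 0 in SOX9-mEGFP_spheroid. In SOX9-Halo_budding it had 8.75, 2.92 and 8.78, and in SOX9-mEGFP_budding 4.86, 15.6 and 25.7, so each spheroid condition overlapped its budding line.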

How the data were processed

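Poly-A RNA of 15 mouse small intestinal organoid libraries, 3 per condition, was sequenced after library preparation with the NEBNext Ultra II kit, which does not mark strand. The authors trimmed reads with cutadapt 4.5 (per the submitters' processing notes), aligned them to mm39 (GRCm39) by STAR (unique alignments only) and made a count per gene in HTSeq 2.0.2, union mode, ignoring strand. The deposited counts per gene are whole numbers, not normalized. The authors' normalized table and 7 comparison tables (fold changes, p-values) were not used. Of the 78298 gene identifiers, 78168, including all 44 collagens, matched GENCODE M39.

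Counts were filtered with filterByExpr by condition, scaled with TMM and tested with edgeR 4.0.16 (limma 3.58.1, R 4.3.3), with 1 quasi-likelihood fit of 15 libraries and 9 contrasts. A DEG had an adjusted p (Benjamini-Hochberg, 17560 genes) up to 0.01, a 2-fold or larger change and 10 or more normalized counts on average, the study's thresholds. A normalized count is the count divided by the effective library size, times the mean effective library size. SE was derived from the log2 fold change and its F statistic. Counts ranged from 28062722 to 40559766 per library. Reads are not counted by molecule, so counting intervals (95%) and the limit of 3 reads for a count of 0 cover counting error only. The scripts were tested on simulated data. Figures and sequence searches used Python 3.11.15, pandas 2.3.3 and matplotlib 3.10.9.

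The members and lists were chosen with earlier results of these data known. Named were, per class, up to 3 members with the highest level per kilobase and a mean of at least 10, members called with at least 100 normalized counts in a condition, and Col2a1, Col9a1 and Col11a2. From the lists of other genes, those with the 2 highest means and the largest rise and fall in SOX9-Halo_spheroid were named. Replicate numbers were checked for pairing by the correlation of deviations from condition means. Between SOX9-Halo_budding and SOX9-Halo_spheroid same-numbered libraries gave r = 0.42, 0.247 and 0.382 (mean of the other pairs -0.182) over 11069 genes. All of these exceeded the limit of 0.1, so by this rule the numbers pair them. In the other 9 pairs of conditions at least 1 value did not exceed it, and these were not taken as paired. Some of their libraries still deviated together. Halo-NLS and SOX9-Halo_budding gave r = 0.477, 0.826 and -0.1, and the budding lines 0.021, 0.365 and 0.739. Alternatives were other normalizations, no filter, DESeq2 1.42.0, fits of only the libraries compared, an adjusted p of 0.05, a replicate block and leaving out each library.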

Additional observations from a re-analysis of the deposited data

Results flagged for a closer look

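2 collagens changed differently from budding to spheroid in the SOX9-Halo and SOX9-mEGFP lines by the interaction test of the 17560-gene edgeR fit. Col4a5 differed by -3.71 ± 0.74 (SE, log2; edgeR adjusted p = 0.00308). Its change was 6.29 in SOX9-Halo and 10.00 in SOX9-mEGFP, the spheroid levels of both lines differed by -0.23 ± 0.36, and the budding levels by 3.48 ± 0.63. Col26a1 differed by -6.38 ± 1.39 (edgeR adjusted p = 0.00577), with a change of -4.52 ± 0.95 in SOX9-Halo and of 1.86 ± 0.98, not called, in SOX9-mEGFP. It held 2 reads in SOX9-Halo_spheroid and 4 in SOX9-mEGFP_budding.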

How the results depend on the processing

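Of 264 recomputed counts of collagens called higher or lower, 210 stayed within 1.5 times of the reported count. The 46 calls of single collagens had 656 alternatives, of which 602 kept the call and 54 lost it, 48 with the same direction and 6 because the gene did not pass the filter (Col26a1 and Col4a5, in fits to only the libraries compared), and 0 reversed. Counts of collagens higher in a spheroid against Halo-NLS or its own budding line were within 1.5 times in every alternative, and the cause of the following moves was not tested. Without the low-count filter, 2 were lower in SOX9-Halo_spheroid and 3 higher in SOX9-Halo_budding against Halo-NLS, 3 higher in SOX9-mEGFP_budding against Halo-NLS, 3 higher in SOX9-Halo_budding against SOX9-mEGFP_budding, and 1 higher and 5 lower in the interaction. At an adjusted p of 0.05 these counts were 2, 3, 1 and 1, with 4 lower in the interaction, and DESeq2 gave 2 higher in SOX9-Halo_budding and 1 in SOX9-mEGFP_budding against Halo-NLS, 1 higher in SOX9-Halo_budding against SOX9-mEGFP_budding and 4 lower in the interaction. With a replicate block in all 15 libraries, 2 were higher in SOX9-Halo_budding against Halo-NLS and 1 lower in the interaction. In fits to only the libraries compared, with and without the replicate block, 0 were lower in SOX9-Halo_spheroid against SOX9-Halo_budding, 0 higher in SOX9-Halo_budding against Halo-NLS and 1 lower in the interaction, with 1 higher under the block. The replicate block changed no other count by over 1.5 times. Leaving out 1 library gave 0 to 2 lower in either spheroid condition and 0 to 2 higher in SOX9-Halo_budding against Halo-NLS, 0 to 1 lower in SOX9-mEGFP_budding against Halo-NLS, 0 to 1 higher in SOX9-Halo_spheroid against SOX9-mEGFP_spheroid and in SOX9-Halo_budding against SOX9-mEGFP_budding, and 0 to 3 lower in the interaction. Scaling by library sizes alone moved the median log2 fold change of all genes in SOX9-Halo_spheroid against Halo-NLS to 0.276, with 3102 genes higher and 2229 lower in place of 2392 and 2682, and 9 collagens higher and 1 lower. Members with a few reads per library (Col2a1, Col4a6 outside SOX9-mEGFP_spheroid, and the 26 untested) are limited by depth.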
